A study of Mus musculus with 6 samples.

Results

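The transcripts described here are noncoding RNAs that RefSeq lists with an NR_ accession, as probed by a 1-colour Agilent mouse array in embryonic stem cells kept alive by a mouse or a coelacanth POUV protein. They were chosen as the non-control probes whose accession starts with NR_, after 14 probes of imprinted transcripts had been set aside. The rule used no measured value, but it and the gene lists below were set with earlier results of these data known. It gave 1412 probes of 55681 non-control probes (2.54%), of which 1347 could be named with 1206 gene symbols from a RefSeq table. The other 65 probes, of 52 accessions, had no match in the table, so whether any of them is imprinted could not be checked. By class, the probes covered 278 antisense or opposite-strand transcripts, 253 transcribed pseudogenes, 54 named long noncoding RNAs, 27 listed as hosts of snoRNAs or microRNAs, 22 noncoding variants of coding genes, 11 small or structural RNAs and 702 models with only a Rik, Gm or similar name.

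All cells came from ZHBTc4 mouse embryonic stem cells, whose own Oct4 alleles are both disrupted and whose growth rests on an Oct4 transgene that tetracycline shuts off. Every line was electroporated with a pCAG-IP plasmid encoding a POUV protein and kept in tetracycline at 2 µg/mL, with puromycin at 1 µg/mL from day 2, and surviving colonies were picked at day 9. Clones 1 and 2 of the mOct4 group carried the mouse protein. The coelacanth paralogs were POU5F1 in clones 4 and 5 of the LcPOU5F1 group, and POU5F3 in clones 1 and 2 of the LcPOU5F3 group. The series asks how far each coelacanth paralog can stand in for mouse OCT4. Each line is 1 picked clone measured on 1 array, so p-values below measure the spread between separately picked clones.

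A noncoding RNA acts, where it acts at all, as RNA or through the act of being transcribed, and not as a template for protein. Host genes are spliced RNAs whose introns or exons release small RNAs: snoRNAs, which guide chemical modification of ribosomal RNA, or microRNAs, which silence messenger RNAs through a short seed near their 5′ end. Many snoRNA hosts start in a pyrimidine tract like that of ribosomal protein genes. The Platr transcripts are named for their expression in pluripotent stem cells, and OCT4 binds DNA at an octamer motif, often beside SOX2.

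A choice of the microRNAs carried by 4 of the host transcripts described below is printed first, 1 to 3 mature forms a host, because the array measured the hosts and not the mature microRNAs. Sequences are RefSeq mature forms 5′ to 3′ on GRCm38.p6, and capitals mark the seed, bases 2 to 8. The D7Ertd143e interval holds the genes of the miR-290 to miR-295 cluster, the main microRNA family of mouse embryonic stem cells, from miR-291a to miR-295. The miR-291a-3p, miR-294-3p and miR-295-3p sequences share 1 seed, and miR-15a-5p and miR-16-5p, from Dleu2, share another.
mmu-miR-291a-3p (host D7Ertd143e, chr7:3218968-3218989, + strand): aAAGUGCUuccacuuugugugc
mmu-miR-294-3p (host D7Ertd143e, chr7:3220691-3220712, + strand): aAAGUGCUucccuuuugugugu
mmu-miR-295-3p (host D7Ertd143e, chr7:3220815-3220837, + strand): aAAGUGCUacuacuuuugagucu
mmu-miR-22-3p (host Mir22hg, chr11:75463772-75463793, + strand): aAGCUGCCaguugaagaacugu
mmu-miR-9-5p (host Mir9-3hg, chr7:79505279-79505301, + strand): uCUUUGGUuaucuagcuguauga
mmu-miR-15a-5p (host Dleu2, chr14:61632075-61632096, - strand): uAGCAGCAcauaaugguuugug
mmu-miR-16-5p (host Dleu2, chr14:61631936-61631957, - strand): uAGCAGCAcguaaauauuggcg

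The start regions of the snoRNA hosts Snhg5, Snhg7 and Snhg12 are shown because these transcripts were lower with LcPOU5F3 than with the other proteins. They are RefSeq promoter windows on GRCm38.p6, 250 bases before to 50 bases after the annotated start, read on the transcribed strand, and capitals mark the longest run of C and T within 25 bases of the start. That run was 7 bases in Snhg5, 6 in Snhg7 and 9 in Snhg12. Across the snoRNA hosts on the array, 6 of 12 promoter windows held a run of 8 or more such bases there, against 19.7% of all 32851 windows.
Snhg5 (chr9:88522848-88523147, - strand): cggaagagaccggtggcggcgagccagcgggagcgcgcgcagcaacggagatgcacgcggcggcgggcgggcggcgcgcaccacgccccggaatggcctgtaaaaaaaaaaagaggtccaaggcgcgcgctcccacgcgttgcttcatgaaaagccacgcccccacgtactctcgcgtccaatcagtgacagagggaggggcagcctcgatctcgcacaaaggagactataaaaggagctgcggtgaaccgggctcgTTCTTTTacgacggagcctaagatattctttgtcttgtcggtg
Snhg7 (chr2:26640195-26640494, - strand): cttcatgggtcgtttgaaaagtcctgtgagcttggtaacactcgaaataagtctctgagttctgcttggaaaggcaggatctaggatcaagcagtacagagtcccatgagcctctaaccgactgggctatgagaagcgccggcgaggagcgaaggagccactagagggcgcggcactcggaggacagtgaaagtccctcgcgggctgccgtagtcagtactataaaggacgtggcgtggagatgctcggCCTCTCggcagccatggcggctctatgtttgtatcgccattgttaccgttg
Snhg12 (chr4:132308428-132308727, + strand): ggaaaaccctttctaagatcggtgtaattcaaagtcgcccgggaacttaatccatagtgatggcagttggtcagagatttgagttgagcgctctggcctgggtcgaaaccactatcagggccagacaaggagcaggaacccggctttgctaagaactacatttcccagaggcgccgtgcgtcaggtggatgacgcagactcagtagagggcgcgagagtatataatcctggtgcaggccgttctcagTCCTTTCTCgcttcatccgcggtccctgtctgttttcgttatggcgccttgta

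The windows of Platr26 and Platr10 are shown because these pluripotency-associated RNAs were detected on all 6 arrays and were lower with LcPOU5F3 than with the other proteins. Capitals mark the 50 bases from the annotated start on.
Platr26 (chr2:71719167-71719466, + strand): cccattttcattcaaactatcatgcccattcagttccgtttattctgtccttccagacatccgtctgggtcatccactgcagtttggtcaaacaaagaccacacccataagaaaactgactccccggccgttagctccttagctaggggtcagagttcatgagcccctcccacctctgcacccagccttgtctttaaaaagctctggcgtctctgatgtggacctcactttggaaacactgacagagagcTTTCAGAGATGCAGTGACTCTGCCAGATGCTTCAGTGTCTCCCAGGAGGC
Platr10 (chr3:75655682-75655981, - strand): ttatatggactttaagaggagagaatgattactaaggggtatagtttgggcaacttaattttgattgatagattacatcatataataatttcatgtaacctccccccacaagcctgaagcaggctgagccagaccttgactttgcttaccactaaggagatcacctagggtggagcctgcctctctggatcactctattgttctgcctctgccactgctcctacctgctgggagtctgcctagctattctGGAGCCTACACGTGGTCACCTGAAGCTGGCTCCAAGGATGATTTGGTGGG
The octamer ATGCAAAT, searched on both strands, was in neither window. Among all noncoding transcripts with a window, 14 of 868 held it (1.61%), against 570 of 32851 windows in the table (1.74%). It was in none of the 27 windows of transcripts that were lower with LcPOU5F3 than with mOct4 and in none of the 11 windows of those that were higher. These are descriptions of letters in 300-base windows and say nothing of binding elsewhere.

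Detection came next. Signals were expressed as log2 processed intensity minus the 75th percentile of that array, called the level below, and a signal counted as detected where the scanner software marked it well above background. Of the 1412 probes, 751 (53.2%) were detected on no array. A total of 545 (38.6%; 444 symbols) were detected on both arrays of at least 1 group and were tested, and 316 of these were detected on all 6 arrays. Only this share of the transcripts is described by the comparisons. A transcript that passed through 1 group alone was kept for its signal there, which favours a difference but does not force one. Counts over the tested probes are therefore not counts over all noncoding RNAs.

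Detected noncoding probes numbered 571 and 588 with mOct4, 454 and 371 with LcPOU5F1, and 371 and 510 with LcPOU5F3. As shares these were 40.4% and 41.6%, 32.2% and 26.3%, and 26.3% and 36.1%. The other probes of the same arrays ran in the same order, from 43.9% to 58.2%, and were detected more often than noncoding probes on each array. The lowest level still marked as detected differed among arrays too, at -3.63 and -3.44 with mOct4, -2.55 and -2.22 with LcPOU5F1, and -2.17 and -3.69 with LcPOU5F3. The part of this floor in the detection counts was not tested.

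**Figure D1:**
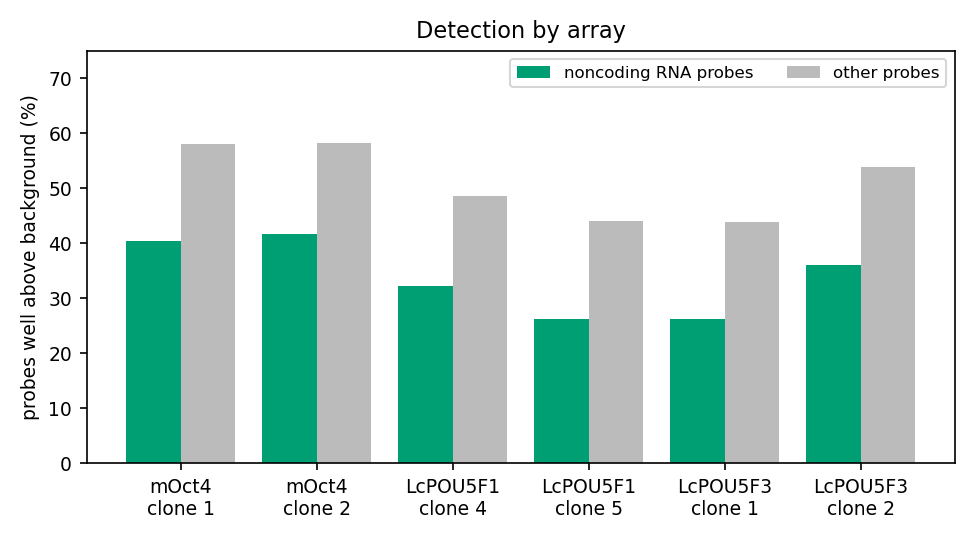
Share of probes well above background on each of the 6 arrays, in percent, for noncoding RNA probes (green) and all other non-control probes (grey). The noncoding bars run from 26.3% to 41.6% and stay below the grey bars on each array.

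Transcripts detected in a single group were few. A total of 44 noncoding probes (3.12%; 2.89% of all probes) were detected on both mOct4 arrays and on no other. Among them were Platr5 and the brighter probe of Emx2os, the opposite-strand transcript of the forebrain gene Emx2. Such patterns need not mean a higher level, because the lowest detected level differed among arrays. This Emx2os probe stood at -3.02 and -3.14 with mOct4, below its undetected -2.70 and -2.71 with LcPOU5F1. The other Emx2os probe was detected on no array. Detection on both LcPOU5F3 arrays and nowhere else was seen for 3 (0.212%; 0.296% of all probes): B630019K06Rik, Gm5420 and 1110046J04Rik. No noncoding probe was restricted in this way to the LcPOU5F1 clones, against 18 of all probes. In the reverse pattern, 7 noncoding probes were missing only from the LcPOU5F3 clones (0.496%; 0.454% of all probes) and 6 only from the LcPOU5F1 clones (0.425%; 0.862% of all probes).

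The comparison of LcPOU5F3 with mOct4 asks what changes when the coelacanth POU5F3 protein replaces OCT4. Of the 545 tested noncoding probes, 64 (11.7%, of 62 names) differed at an adjusted p under 0.05 in limma, against 12.2% of all 30939 tested probes, so the share was near the background. They split into 22 higher with LcPOU5F3 (4.04%; 6.05% of all probes) and 42 lower (7.71%; 6.15% of all probes). At an unadjusted p under 0.05, 175 differed (32.1%; 31.6% of all probes), and a fit of the 4 compared arrays alone called 14 (2.57%; 4.71% of all probes). The median log2 difference was -0.23 for noncoding probes and -0.11 for all probes. With arrays centred on their median, 17 were higher and 54 lower. None of the 64 remained called without mOct4 clone 1 or without mOct4 clone 2, 14 remained without either LcPOU5F1 clone, 61 without LcPOU5F3 clone 1 and 55 without LcPOU5F3 clone 2. Each such fit leaves 1 array in a group and changes the estimate of spread that all groups share. How far the calls named below rest on the values of any 1 clone was not tested. The 14 called in the fit of 4 arrays included BC021767, Bmp1, Mir22hg, Lppos and Gm13580, and no snoRNA host or Platr transcript.

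**Figure D2:**
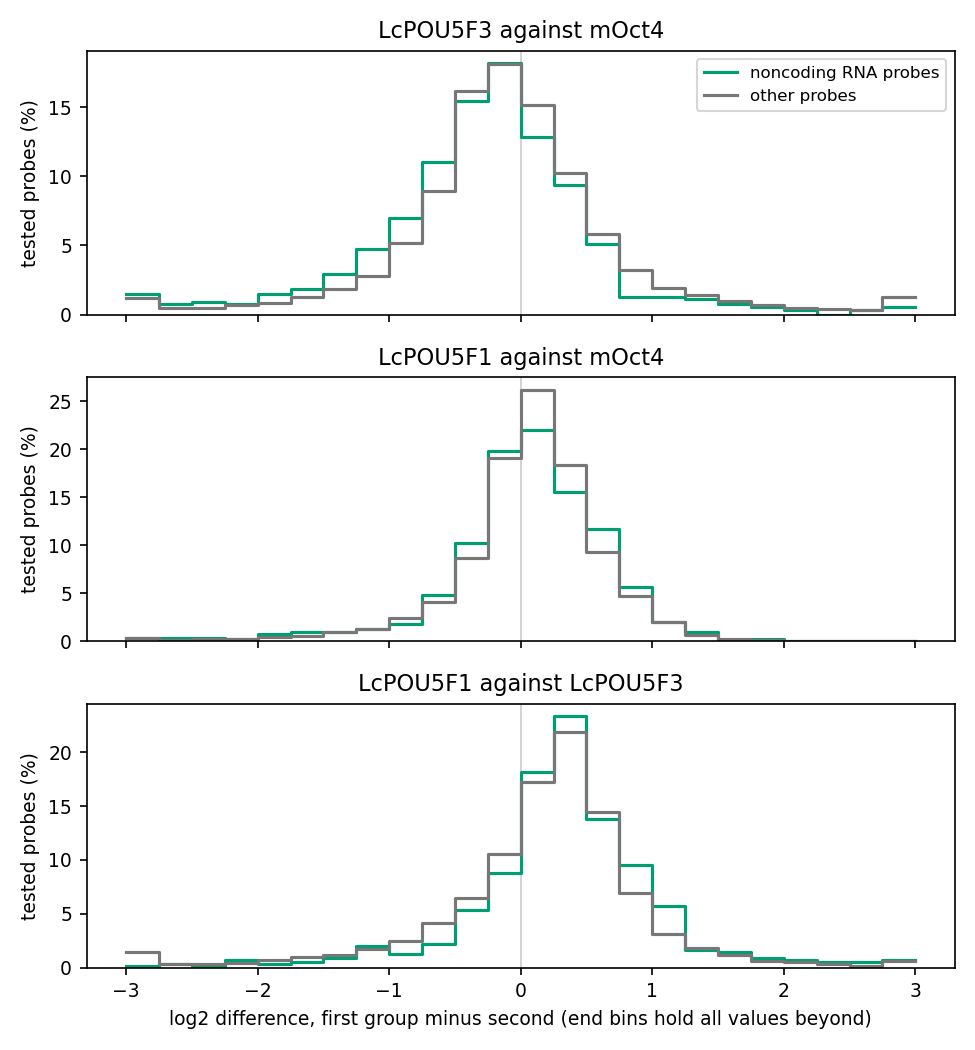
Share of tested probes, in percent, in bins of log2 difference 0.25 wide, for noncoding RNA probes (green, n = 545) and other tested probes (grey), in the 3 comparisons. In LcPOU5F3 against mOct4 the green line lies left of the grey one, with medians of -0.23 for noncoding and -0.11 for all tested probes.

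The cultures themselves differed between these groups. Levels of 10 naive pluripotency genes, summed on the linear scale in units of each array's 75th percentile, ranged from 908 to 1012 in the mOct4 clones, 791 to 937 in the LcPOU5F1 clones and 358 to 495 in the LcPOU5F3 clones, and 7 of the 10 were lower with LcPOU5F3 than with mOct4. Dppa5a made up most of the LcPOU5F3 sum, at 8.37 and 8.02 there and 8.63 and 8.88 with mOct4. The sum of 8 trophectoderm genes was 19.1 to 19.3, 12.0 to 19.8 and 560 to 604. Of the 7 tested, 5 were higher with LcPOU5F3 than with mOct4 and 1 was lower. Nearly all of the LcPOU5F3 sum was Krt18, at 8.75 and 8.82, and Krt8, at 6.62 and 6.93. The lower gene was Eomes, at 0.47 and -0.51 against 1.73 and 2.17 with mOct4, and Hand1 overlapped mOct4. Elf5 in that list and the mesoderm genes T and Mixl1 were detected on no array. Primitive endoderm genes summed to 0.561 to 0.710, 1.00 to 1.61 and 2.18 to 3.66, with 1 of 3 tested higher with LcPOU5F3 than with mOct4. Most of the LcPOU5F3 sum was Dab2, at 0.26 and 1.42, while Sox7 and Pdgfra were not detected there and Gata4 overlapped mOct4. Sums were, for neuroectoderm genes, 1.82 to 2.04, 3.66 to 4.98 and 2.26 to 3.01 (1 of 3 higher with LcPOU5F1 than with LcPOU5F3), and for fibroblast genes 1.78 to 2.19, 0.773 to 0.814 and 3.81 to 4.67. The last was nearly all Thy1, at 2.09 and 1.85 with LcPOU5F3, while Col1a1 was not detected there and Col1a2 stood at -1.70 and -2.64 against -1.85 and -1.68 with mOct4. In RNA from whole cultures, fewer cells of a type and less RNA per cell cannot be told apart, and the part of these genes in the noncoding results was not tested.

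The pluripotency-associated transcripts included Platr26, the largest called fall. The list had 10 probes of 9 genes on the array, of which 6 probes of 5 genes were tested. Of these, 4 probes of 3 genes were lower with LcPOU5F3 than with mOct4 (66.7%; 6.15% of all tested probes) and none was higher. The median log2 difference was -2.78, beside -0.11 for all tested probes. As 2 of the 6 probes were not detected with LcPOU5F3, the median with these at their bound was -1.60, and with a common floor on all arrays it was -1.22 with 2 probes called. It was -1.45 under normexp, -3.51 without LcPOU5F3 clone 1 and -2.05 without clone 2, and none was called without mOct4 clone 1, mOct4 clone 2, LcPOU5F1 clone 4 or LcPOU5F1 clone 5. These genes are named in part for their expression in stem cells of this kind.

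Platr26 had levels of 1.44 and 1.35 with mOct4, 0.86 and 0.89 with LcPOU5F1, and -1.59 and -3.31 with LcPOU5F3. The LcPOU5F3 clones lay below all others and were themselves apart by more than the other pairs. Against mOct4 the log2 difference was -3.84 ± 0.55 (SE, n = 2 clones a group; adjusted p = 0.02), a 14.3-fold lower signal. A second Platr26 probe gave -3.20 ± 0.51 (adjusted p = 0.025).

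Platr10 stood at 1.40 and 1.01 with mOct4, 1.87 and 1.73 with LcPOU5F1, and -0.22 and -1.41 with LcPOU5F3, a log2 difference from mOct4 of -2.01 ± 0.42 (SE; adjusted p = 0.041). Here the LcPOU5F1 clones lay above the mOct4 clones, although that difference of 0.59 did not pass the test (adjusted p = 0.56). Platr5 was detected only in the mOct4 clones, at -2.46 and -2.22. It was at least 1.51-fold lower with LcPOU5F3 (adjusted p = 0.033). For this bound, as for the others given here, each array of the dim group was set to its lowest detected level, or to the probe's own level where that was higher, before both group means were compared.

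Platr14 was detected at -1.80 and -1.68 in the mOct4 clones and at -1.75 in LcPOU5F1 clone 4, but not in LcPOU5F1 clone 5 or the LcPOU5F3 clones. It missed the threshold at an adjusted p of 0.057, with a signal at least 2.29-fold lower with LcPOU5F3. Platr21 went its own way, with 1.51 in LcPOU5F1 clone 4, no detection in LcPOU5F1 clone 5, and 0.39 and 0.32 in the LcPOU5F3 clones against -0.84 and -1.46 with mOct4, and was not called (adjusted p = 0.49). Tunar, Platr4, Platr8 and Kis2 were detected on no array.

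The D7Ertd143e transcript, which spans most of the miR-290 to miR-295 cluster printed above, was singled out after its values were seen. Its brighter probe had levels of 6.16 and 5.86 with mOct4, 6.09 and 5.81 with LcPOU5F1, and 4.99 and 3.90 with LcPOU5F3. The LcPOU5F3 clones lay below the other 4, which overlapped each other. The log2 difference from mOct4 was -1.57 ± 0.39 (SE) and did not pass the test (adjusted p = 0.061), while the second probe gave -1.72 ± 0.39 and did (adjusted p = 0.049).

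The hosts of snoRNAs had a lower mean level with LcPOU5F3 on each probe, though most did not pass the test. All 13 probes, of 12 genes, were detected on all 6 arrays and tested. Against mOct4 all 13 had a negative log2 difference with LcPOU5F3, as had 362 of the 545 tested noncoding probes. The median was -0.90 beside -0.11 for all probes. The test was passed by 4 (30.8%; 6.15% of all tested probes were lower): Snhg5, Snhg6, Snhg7 and Snhg12. These 13 probes share the same clones, so they do not replicate the difference, and the list was chosen with earlier results known. The 13 stayed negative under quantile normalization, median centring and normexp background correction, where 6, 1 and 7 were called. Without mOct4 clone 2, 12 of 13 were negative, and none of the 13 was called without mOct4 clone 1, mOct4 clone 2, LcPOU5F1 clone 4 or LcPOU5F1 clone 5.

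Snhg7, which holds Snora17 and Snora43, had levels of 2.34 and 2.17 with mOct4, 2.67 and 2.37 with LcPOU5F1, and 1.20 and 0.37 with LcPOU5F3 (log2 difference from mOct4 -1.47 ± 0.32, SE; adjusted p = 0.044). The LcPOU5F3 clones were the 2 lowest of the 6. Snhg6, host of Snord87, ran at 5.07 and 5.02, 4.76 and 4.88, and 4.09 and 3.76 in the same order, a 2.17-fold lower signal (adjusted p = 0.027). Snhg5, whose RefSeq interval holds 2 small RNA genes without a common name, stood at 1.17 and 1.11, 1.11 and 1.1, and 0.23 and -0.09 (2.10-fold lower; adjusted p = 0.027).

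Snhg12, with 4 small RNA genes inside it including Snord99, was 1.87-fold lower (3.24 and 3.29 with mOct4, 3.54 and 3.51 with LcPOU5F1, 2.55 and 2.18 with LcPOU5F3; adjusted p = 0.044). Dancr, host of Snora26, missed the threshold against mOct4 with a log2 difference of -1.09 (adjusted p = 0.061), as did both Snhg16 probes with -0.87 and -0.65 (adjusted p = 0.052 and 0.086). Snhg17 and Snhg10 had the smallest differences, -0.32 and -0.22, and in Snhg17 the clones of the 2 groups overlapped. The small RNA Snora74a itself, from the Snhg4 locus, went from 1.71 and 1.42 with mOct4 through 1.17 and 0.91 with LcPOU5F1 to 0.10 and -0.65 with LcPOU5F3 (log2 difference from mOct4 -1.84 ± 0.30, SE; adjusted p = 0.025). On this probe the groups did not overlap, but a probe for a snoRNA may also read its host.

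**Figure D3:**
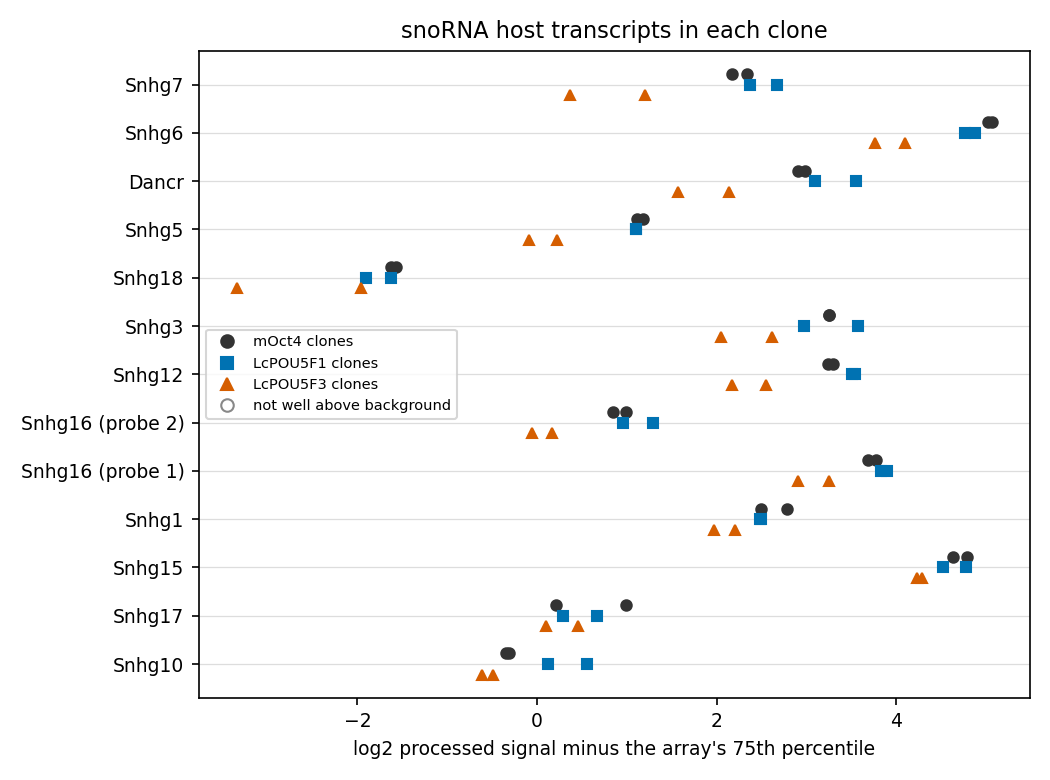
Levels of the 13 snoRNA host probes in each clone, as log2 processed signal minus the array's 75th percentile, one row per probe and one symbol per clone (mOct4 black, LcPOU5F1 blue, LcPOU5F3 orange). The orange symbols lie left of the black ones in most rows, by 1.47 on average in Snhg7 and 0.22 in Snhg10, and overlap them in Snhg17.

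MicroRNA hosts moved in both directions. The list also held Mirt1 and Mirt2, which are myocardial infarction associated transcripts and not hosts (3 probes, also among the 27 above). Of the other 10 probes, of 8 genes, 4 were tested: 1 was higher with LcPOU5F3 than with mOct4, 1 lower and 2 did not pass. The share called was 50%, against 12.2% of all tested probes. D7Ertd143e, described above, was not in this list and is not in these counts. Both of its 2 probes had a negative log2 difference, and 1 was called. Mir22hg, the host of miR-22, had levels of -1.60 and -1.91 with mOct4, -2.08 and -1.21 with LcPOU5F1, and 0.10 and 0.38 with LcPOU5F3. The LcPOU5F3 clones were the only ones above 0, with a log2 difference from mOct4 of 2.00 ± 0.33 (SE; adjusted p = 0.026).

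Mir9-3hg, a host of miR-9, which is best known from the developing brain, ran the other way. Its levels were -0.38 and -0.34 with mOct4, -0.90 and -1.27 with LcPOU5F1 and -2.04 with LcPOU5F3 clone 1, and it was not detected in LcPOU5F3 clone 2. The log2 difference from mOct4 was -2.51 ± 0.54 (SE; adjusted p = 0.045). Mir17hg and Dleu2 were detected on all 6 arrays, with log2 differences of -0.24 and -0.29 that did not pass the test. Dnm3os, Mir99ahg, Mir100hg and Mir124-2hg were detected on no array.

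Of 13 tested probes of 7 abundant nuclear and housekeeping RNAs, 1 was higher with LcPOU5F3 and none lower (7.69%; 12.2% of all tested probes), with a median log2 difference of -0.12. Malat1, a nuclear speckle RNA, stood at 2.79 and 2.46 with mOct4, 3.18 and 3.09 with LcPOU5F1, and 3.30 and 3.23 with LcPOU5F3 (0.64 ± 0.19, SE; adjusted p = 0.088). Neat1, the scaffold of paraspeckles, lay between 3.37 and 3.72 on all 6 arrays, and its groups overlapped. The single call was 1 of 3 Tug1 probes, at 0.99 ± 0.19 (SE; adjusted p = 0.036), while the other two Tug1 probes gave -0.03 and -0.50, so the probes of this gene disagree. The 4 Norad and 2 Pvt1 probes did not pass, with log2 differences from -0.52 to 0.41. Firre was not detected.

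Of the structural RNAs, 4 were tested and none was called. Terc (the telomerase RNA), Rmrp (the RNase MRP RNA), Rnu12 (the U12 spliceosomal RNA) and Rn4.5s had log2 differences of -0.53, 0.04, -0.33 and -0.39 between LcPOU5F3 and mOct4. These misses do not show that the levels were alike. A list of RNAs linked to p53 (6 probes of 3 genes) held the same single Tug1 call. In the list of the X-inactivation centre, both Xist probes and the Jpx probe were detected on no array, and the 1 tested probe of 2 for Ftx did not pass (0.42; adjusted p = 0.49).

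Most developmental transcripts were not detected. In the lineage list 3 of 15 probes were tested and 0 were called, and Fendrr, Six3os1, Dlx1as, Dlx6os1, Wt1os and Mhrt were detected on no array. Of the 3 Hox cluster RNAs, Hoxd3os1 was detected on no array, while Gm53, detected on all 6, ran from -2.17 to -0.75 and was not called (0.24; adjusted p = 0.81). Hoxa11os, transcribed opposite the homeobox gene Hoxa11, was called. Its levels were -2.29 and -2.35 with mOct4, -1.97 and -2.08 with LcPOU5F1, and -1.19 and -0.34 with LcPOU5F3 (1.55 ± 0.30, SE; adjusted p = 0.036). The -2.08, in LcPOU5F1 clone 5, was not marked detected.

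Among transcripts outside the lists, the largest rise was in NR_040692, which has no symbol here. It stood at 0.53 and 0.26 with mOct4, 1.79 and 1.03 with LcPOU5F1, and 3.02 and 4.55 with LcPOU5F3 (3.39 ± 0.55, SE; adjusted p = 0.025), with no overlap between the groups. BC021767, a pseudogene, had the largest rise of a named transcript. Its levels were 1.03 and 0.76 with mOct4, 1.28 and 0.26 with LcPOU5F1, and 3.61 and 3.93 with LcPOU5F3. The first 4 clones overlapped and the LcPOU5F3 clones stood well above them, at a log2 difference from mOct4 of 2.88 ± 0.37 (SE; adjusted p = 0.017). The 1810019D21Rik transcript rose by 2.78 ± 0.38 (adjusted p = 0.018), from -1.73 and -1.98 with mOct4 to 0.77 and 1.07 with LcPOU5F3, with the LcPOU5F1 clones between at 0.50 and -0.56. B630019K06Rik, detected only with LcPOU5F3 at -1.97 and -1.51, was at least 3.46-fold higher than with mOct4 (adjusted p = 0.015).

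The lowest adjusted p belonged to a noncoding variant of Bmp1, the gene of a procollagen-processing metalloprotease. Its levels were -1.19 and -1.10 with mOct4, -1.03 and -1.08 with LcPOU5F1, and 1.52 and 1.58 with LcPOU5F3 (2.70 ± 0.16, SE; adjusted p = 0.0049). A probe for the coding Bmp1 messenger RNA gave a like difference of 2.75 ± 0.23 (adjusted p = 0.0094), and another gave 0.34 (adjusted p = 0.29). For Alg13, a glycosylation gene, the noncoding variant fell by 1.77 on the log2 scale (adjusted p = 0.021), while the probe for its messenger RNA differed by 0.28 (adjusted p = 0.45). Tmem80 had a variant probe at 0.90 (adjusted p = 0.035) and a messenger probe at 0.31 (adjusted p = 0.29). The difference between variant and messenger probes was not tested, and no source used here says whether a variant probe also reads the coding RNA.

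Both probes of H2-K2, a class I histocompatibility pseudogene, rose by 1.40 with LcPOU5F3 (adjusted p = 0.04 and 0.031). As a member of a family of similar sequences it may share signal with other class I genes. Gm10845 had 1 of 3 probes called, at 1.64 (adjusted p = 0.024), with 0.22 and 0.12 on the others. Over the 49 genes with more than 1 tested noncoding probe, all probes were called in 2 genes (H2-K2 and Platr26), some in 6, and the probes differed in sign in 11.

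The falls outside the lists included 5330411J11Rik, 2610028E06Rik and 2900041M22Rik, which were detected with mOct4 and in neither LcPOU5F3 clone. Their signals were at least 1.98-fold, 2.15-fold and 5.13-fold lower (adjusted p = 0.03, 0.041 and 0.015). Gm13580 dropped from -0.07 and 0.09 with mOct4 to -2.18 in LcPOU5F3 clone 1 and -3.22 in clone 2 (-2.71 ± 0.37, SE; adjusted p = 0.018). Only the lower of these, in clone 2, was marked detected, as the lowest detected level differed between these arrays. The LcPOU5F1 clones held at -0.29 and 0.02. Frs3os, opposite the growth factor receptor adaptor gene Frs3, had levels of -0.03 and -0.34, 0.73 and 0.32, and -1.62 and -2.51 in the 3 groups (-1.88 ± 0.35, SE; adjusted p = 0.033). Its LcPOU5F1 clones were the highest and its LcPOU5F3 clones the lowest.

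**Figure D4:**
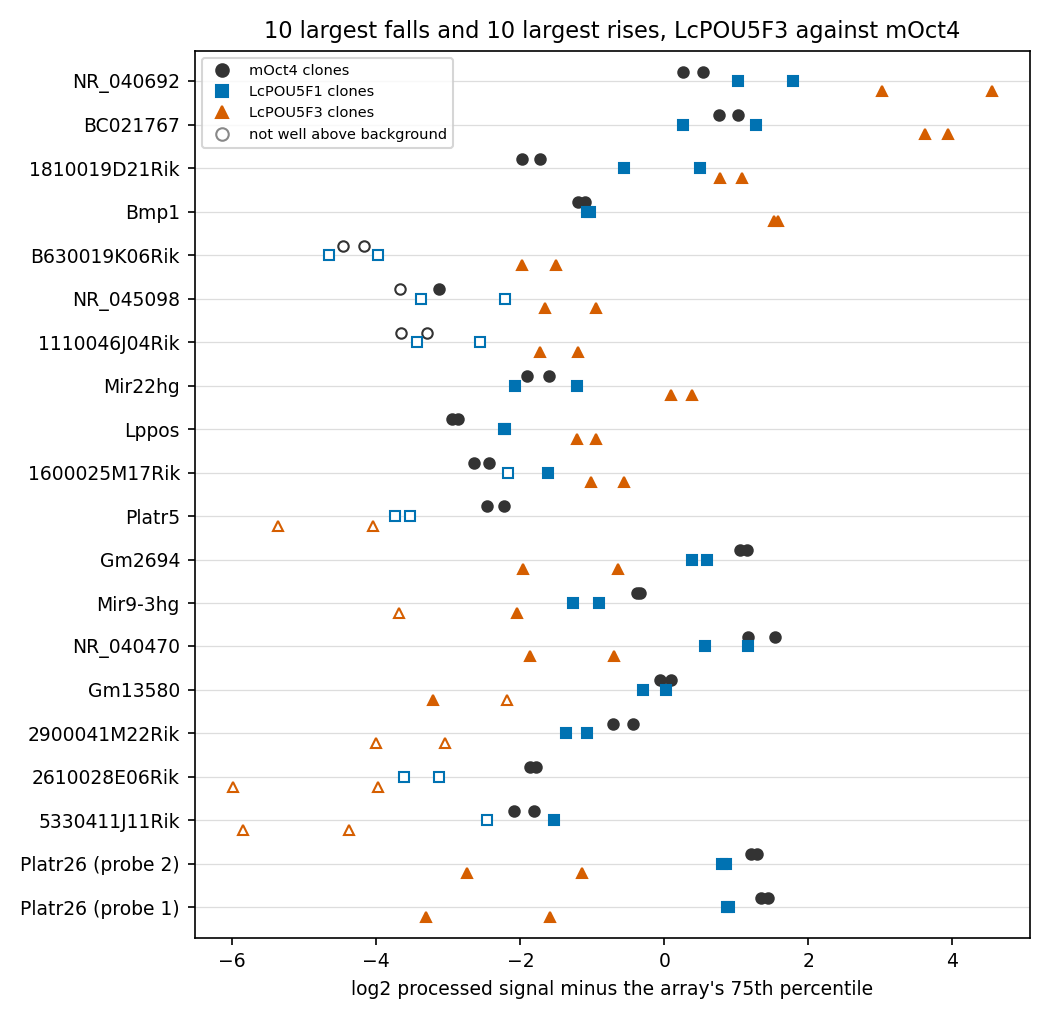
Levels in each clone of the 10 largest falls and 10 largest rises among called noncoding probes, LcPOU5F3 against mOct4, as log2 processed signal minus the array's 75th percentile, with open symbols where the signal was not well above background. These probes were picked for this difference; the LcPOU5F1 clones (blue) are at 0.86 and 0.89 for Platr26 and -1.03 and -1.08 for Bmp1.

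Many noncoding RNAs lie beside or across a coding gene, so each tested transcript was set beside its nearest coding gene within 5000 bases, where that gene had a tested probe. This gave 236 pairs. Between LcPOU5F3 and mOct4 the noncoding RNA was called in 31 of them (13.14%) and the coding gene in 33 (13.98%). Of all tested probes, 12.2% were called. Both were called in 8 pairs, and in all 8 they differed in the same direction. Across the 236 pairs, which share the 6 arrays, Pearson's r between both log2 differences was 0.41, given as a description. Whether pairs drawn at random, or adjacent coding genes, would give a like value was not tested. Orientation was opposite in 105 pairs (r of 0.40), the same in 16 (0.08) and unknown in 115 (0.45), where a probe could read the coding transcript itself. Of the 8 pairs with both called, 6 overlap. In the 43 opposite-strand pairs that do not overlap, r was 0.29 and both were called in 0.

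The pair Lppos and Lpp is transcribed from overlapping, opposite strands, and Lpp encodes a focal adhesion protein. Lppos had levels of -2.86 and -2.94 with mOct4, -2.22 and -2.21 with LcPOU5F1, and -0.95 and -1.21 with LcPOU5F3 (1.82 ± 0.17, SE; adjusted p = 0.011). Lpp stood at -2.0 and -1.98, -1.57 and -0.93, and 1.82 and 3.18 in the same order (4.49 ± 0.48, SE; adjusted p = 0.013). In both members of the pair the LcPOU5F1 clones fell between the other groups.

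The 9230102O04Rik transcript overlaps Gata3, a trophectoderm transcription factor gene, on a strand not given here. It rose by 1.03 ± 0.22 (SE; adjusted p = 0.044), and Gata3 by 4.02 ± 0.40 (adjusted p = 0.011). The other pairs that rose together were BC021767 with Tuft1 (2.88 and 2.83), 1810019D21Rik with Esrp2, an epithelial splicing regulator (2.78 and 2.29), and 1110046J04Rik with Serpinb6a, which overlap on opposite strands. As 1110046J04Rik was not detected with mOct4, its rise was at least 4.00-fold, beside a log2 difference of 1.11 for Serpinb6a.

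Pairs that fell together were Gm2694 with Cbln1, Gdap10 with Nampt, an enzyme of NAD synthesis, and 1700042O10Rik with Ddc, the aromatic amino acid decarboxylase. Gm2694 went from 1.05 and 1.15 with mOct4 through 0.39 and 0.60 to -0.64 and -1.96 (-2.40 ± 0.44, SE; adjusted p = 0.032), and Cbln1 went from 0.21 and 0.14 through -1.97 and -1.33 to no detection, at least 8.63-fold lower. Gdap10 and Nampt fell by 1.35 and 1.17 on the log2 scale. Other called transcripts lay by genes with little difference: Snhg7 by Dipk1b (-0.19), Snhg12 by Trnau1ap (0.18), Platr10 by Serpini1 (0.38), Mir22hg by Tlcd2 (0.31) and 2310010J17Rik by Picalm (0.14).

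**Figure D5:**
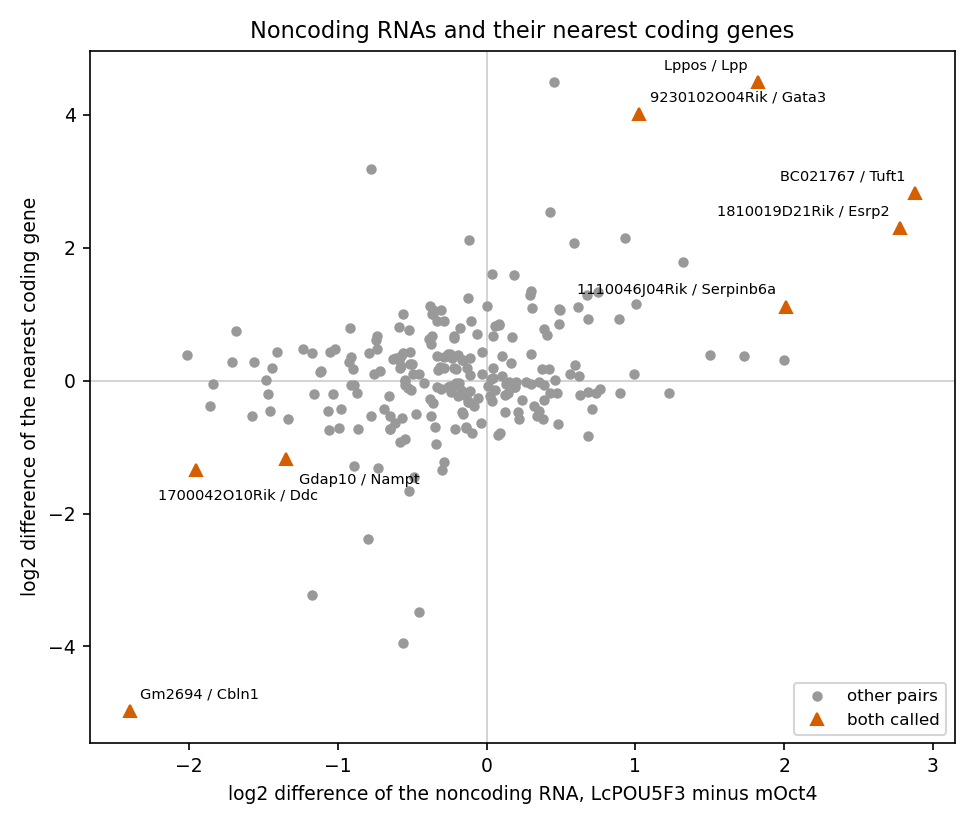
Log2 difference of each tested noncoding RNA (horizontal) and of its nearest coding gene (vertical), LcPOU5F3 minus mOct4, for 236 pairs; orange triangles mark the 8 pairs in which both were called. All 8 lie where both values have the same sign, as in BC021767 and Tuft1 at 2.88 and 2.83. Fitted values are plotted also where 1 group was not detected, as for Cbln1, where the fall is at least 8.63-fold.

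The comparison of LcPOU5F1 with mOct4 gave 0 calls among 545 noncoding probes, against 0.0% of all tested probes. At an unadjusted p under 0.05, 76 noncoding probes differed (13.9%; 12.7% of all probes). The medians were 0.09 and 0.11 for noncoding and all probes, and median centring moved the latter to -0.27. When only the 4 arrays of these groups were fitted, which leaves the wider spread of the LcPOU5F3 clones out, 14 noncoding probes of 545 were called, 3 higher and 11 lower (2.57%; 2.42% of all probes).

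In that fit of 4 arrays the largest differences were in Zscan4a, named for the Zscan4 family of transcripts that mark a rare state of stem cell cultures. One Zscan4a probe had levels of 2.74 and 2.50 with mOct4, -1.47 with LcPOU5F1 clone 4 and no detection in clone 5, and 1.47 and -1.20 with LcPOU5F3. The mOct4 clones were highest and the LcPOU5F3 clones lay far apart from each other. The log2 difference of LcPOU5F1 from mOct4 was -4.73, with an adjusted p of 0.22 in the fit of 6 arrays and 0.026 in the fit of 4. The second probe was not detected in either LcPOU5F1 clone and was at least 21.3-fold lower than with mOct4 (adjusted p = 0.23 and 0.0045). Near-identical family members may share these signals.

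Sp3os, from the locus of the transcription factor gene Sp3, had levels of 2.29 and 2.50 with mOct4, 1.31 and 1.21 with LcPOU5F1, and 1.36 and 1.49 with LcPOU5F3. Both coelacanth groups lay below mOct4 on this probe, by 1.14 on the log2 scale for LcPOU5F1 (adjusted p = 0.19 in the fit of 6 arrays and 0.046 in the fit of 4). A brighter Sp3os probe stood at 2.58 and 2.63, 1.79 and 1.63, and 1.95 and 1.88 in the same group order. It was called in neither fit. Rbakdn stood at -0.51 and -0.59 with mOct4 and at -2.11 and -2.12 with LcPOU5F1 clones 4 and 5 (adjusted p = 0.31 and 0.026). Of these like levels only that of clone 4 was marked detected. The 3 higher probes of that fit were Celrr, 1700009J07Rik and 9930014A18Rik, by 1.17, 1.17 and 1.32. Pou5f1-rs4, a copy of the Oct4 gene, was detected only in mOct4 clone 1 and was not tested.

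Between the coelacanth proteins, 42 of 545 noncoding probes differed (7.71%; 9.82% of all probes). Of these, 32 were higher with LcPOU5F1 (5.87%; 4.68% of all probes) and 10 were higher with LcPOU5F3 (1.83%; 5.14% of all probes). Some of these signals were dim. Gm4532, among the 32, was detected on none of the 4 compared arrays, and 9130024F11Rik, among the 10, on 1 of them. At an unadjusted p under 0.05, 151 differed (27.7%; 30.6% of all probes). A fit of the 4 compared arrays alone called 0 (0.239% of all probes). The medians were 0.34 for noncoding and 0.27 for all probes. With arrays centred on their median, which moved the all-probe median to -0.10, 20 were higher with LcPOU5F1 and 24 with LcPOU5F3. None of the 42 remained called without mOct4 clone 1, without mOct4 clone 2 or without LcPOU5F1 clone 5, 2 remained without LcPOU5F1 clone 4 and 28 without LcPOU5F3 clone 2, while all 42 remained without LcPOU5F3 clone 1.

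Of the 13 snoRNA host probes, 6 were higher with LcPOU5F1 than with LcPOU5F3 (46.2%; 4.68% of all tested probes). They were Snhg5, Snhg6, Snhg7, Snhg12, Dancr and 1 of 2 Snhg16 probes. All 13 differences were positive (12 of 13 with median centring), as were 420 of the 545 tested noncoding probes. The median was 0.89 beside 0.27 for all probes. Dancr stood at 3.55 and 3.10 with LcPOU5F1 and at 2.14 and 1.57 with LcPOU5F3 (1.47 ± 0.27, SE; adjusted p = 0.036). In the pluripotency-associated list, Platr26 (3.33 ± 0.55, SE; adjusted p = 0.03) and Platr10 (2.61 ± 0.42; adjusted p = 0.028) were higher with LcPOU5F1. As this comparison and the one against mOct4 share the LcPOU5F3 clones, it is no independent support for the low levels there.

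The 10 probes higher with LcPOU5F3 included Bmp1 (2.61 on the log2 scale below it with LcPOU5F1), BC021767, B630019K06Rik, Mir22hg, Lppos and both H2-K2 probes. For Mir22hg the log2 difference of LcPOU5F1 from LcPOU5F3 was -1.89 ± 0.33 (SE; adjusted p = 0.033). Among those that differed here and did not pass against mOct4 were 1700030C10Rik, at 1.05 and 1.49 with LcPOU5F1 and -0.44 and -1.65 with LcPOU5F3 (2.32 ± 0.43, SE; adjusted p = 0.037), and 4930444M15Rik, at 1.28 and 0.68 against -0.84 and -1.50 (2.15 ± 0.32; adjusted p = 0.024). The mOct4 clones of both lay between, at 0.18 and 0.45 for the first and 0.34 and 0.06 for the second.

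Clones of 1 protein differed by a median of 0.21 on the log2 scale for tested noncoding probes with mOct4, 0.25 with LcPOU5F1 and 0.50 with LcPOU5F3. The same values for all tested probes were 0.18, 0.22 and 0.39. On the 316 noncoding probes detected on all 6 arrays they were smaller, at 0.16, 0.20 and 0.34. All probes detected on all 6 arrays gave 0.15, 0.18 and 0.29. The LcPOU5F3 clones were thus the least alike, and clone 1 lay above clone 2 by a median of 0.32 over tested noncoding probes, dim ones included. This spread is seen in Platr26, Snhg7, Mir9-3hg and Gm2694, in each of which LcPOU5F3 clone 2 was the lower one.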

How the data were processed

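RNA of 6 clones was hybridised to 1-colour Agilent mouse arrays designed on mm9, and per the file headers the authors read the scans with version 11.0.1.1 of Agilent's Feature Extraction. The deposited intensity is the processed signal, for which the file headers record background subtraction and spatial detrending. The deposited series table holds the authors' log2 values and was used only as an alternative. From the intensity, log2 was taken and each array's 75th percentile of all non-control probes subtracted, with repeat spots of a probe averaged after outlier spots had been dropped.

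Probes detected on both arrays of a group, in any group, entered 1 limma fit (version 3.58.1, R 4.3.3) of the 6 arrays, and p-values were adjusted by Benjamini-Hochberg over 30939 probes at a threshold of 0.05. The fit leaves 3 residual degrees of freedom. The script was tested on simulated data. Arrays give no read depth, and their number limits the precision.

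The members and gene lists were chosen with earlier results of these data known. The rule for named genes took members of the lists and, per comparison, the 10 highest and 10 lowest called probes whose clones do not overlap, with neighbouring coding genes. Genes outside it, such as D7Ertd143e and those from the fits of 4 arrays, were named after their values were seen. Symbols, intervals and sequences come from RefSeq tables (GRCm38.p6 for coordinates). Alternatives were quantile normalization, median centring, normexp background correction, stricter and no detection filters, a common floor, the authors' values, fits of the compared arrays, blocks by slide or clone number, and leaving out each clone. 1 slide held mOct4 clone 2 alone and the other held the 5 remaining arrays.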

Additional observations from a re-analysis of the deposited data

How the results depend on the processing

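For LcPOU5F3 against mOct4, 64 noncoding probes were called. Only 1 was called with no detection filter, 14 in a fit of the 4 compared arrays, and 0 with the slide as a block. Leaving out each clone gave 0 to 135 calls, with 0 without mOct4 clone 1 or 2, 14 without LcPOU5F1 clone 4 or 5, 135 without LcPOU5F3 clone 1 and 99 without clone 2. For LcPOU5F1 against mOct4, 0 were called, with 1 under quantile normalization, 15 under median centring (all lower) and 14 in the fit of 4 arrays, and leaving out each clone gave 0 to 14. For LcPOU5F1 against LcPOU5F3, 42 were called, with 1 under no filter, 64 under the stricter filter, and 0 in the fit of 4 arrays or with the slide as a block. Leaving out each clone gave 0 to 196. The slide block leaves mOct4 clone 2 out in effect, since it is alone on its slide, so slide and that clone cannot be told apart. The cause of the other changes was not tested.

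The labels give clone numbers and name no pairing of the samples, so none was used in the main fit. Over tested probes, the clone 1 minus clone 2 differences of mOct4 and LcPOU5F3 correlated at -0.13. With only these clones in each group, this value cannot decide whether the samples were paired. With the clone number as a replicate block, 0 probes were called between LcPOU5F3 and mOct4. With the crossed pairing, added after seeing the data, 16 were called, 9 higher and 7 lower. Signals near background limit the dim transcripts, because the lowest detected level differs among arrays.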
